A study of Homo sapiens with 48 samples.

Results

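The YAP/TEAD target genes followed here are CTGF, CYR61, ANKRD1, AMOTL2, AJUBA, CRIM1, ASAP1, AXL, F3 and LATS2, known as targets of YAP and TEAD and found by symbol as 10 of the 19102 rows of the deposited expression table. YAP and its paralog TAZ (gene WWTR1) are coactivators that carry no DNA-binding domain and reach the genome through the TEAD transcription factors. The Hippo kinases, MST and LATS, phosphorylate both coactivators and hold them outside the nucleus. In gliomas and other solid tumours the pathway is known for linking cell shape, adhesion and matrix stiffness to growth.

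The RNA came from A382, an established human glioblastoma line, and was sequenced from polyadenylated transcripts. Cells infected with lentiviral guide RNAs against a single subunit of the EP400/TIP60 chromatin complex, or against the histone variant H2AZ that it handles, were collected at day 9. BRD8 and H2AZ had 4 libraries each (2 guides with 2 replicates), and EP400, TIP60, TRRAP, GAS41, ACTL6A, MRGBP, ING3, DMAP1, MEAF6, VPS72, RUVBL1, RUVBL2, MORF4L1 and MORF4L2 had 1 library for each of 2 guides. Their controls were the guides sgNeg1 to sgNeg4, with 2 libraries each. A further 2 libraries were of A382 carrying a doxycycline-inducible p53 (labelled P53) and 2 of A382 carrying a control vector (labelled PCW), all 4 taken at day 2 of doxycycline, so that the drug is shared by both arms. The labels give no promoter or clone for the vectors, and do not say whether replicates were separate cultures, so the p-values rest on a spread that could be technical. Libraries of the 2 guides against a target were fitted as replicates, so this spread also holds differences between guides. In bulk RNA a change in the share of edited cells and a change within each cell cannot be told apart.

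The table falls into 5 sections, divided by empty columns and each with its own control pair. How the sections were scaled against each other is not given in the sources used here, so knockouts and p53 were compared with the controls of their own section. BRD8 stands with sgNeg1, H2AZ with sgNeg4, EP400 and the other knockouts from TIP60 to VPS72 with sgNeg2, RUVBL1, RUVBL2, MORF4L1 and MORF4L2 with sgNeg3, and P53 with PCW. Comparisons within a section share their control libraries, and levels should not be set against each other between sections. The second-guide columns of MEAF6 and VPS72 held the same value in all 19102 genes and were left out, which leaves 46 libraries and 1 each for MEAF6 and VPS72. An FPKM of 1 (fragments per kilobase of transcript, scaled by library depth) stood for an estimated 4.42 to 22.2 fragments per kilobase. Between 10503 and 11853 genes reached 1 FPKM in each library outside the sgNeg1 section, against 8081 to 8158 within it. The targeted transcript was at 18.6% of its control for H2AZ, 43.1% for BRD8, 51.5% for TIP60 (gene KAT5), 48.5% for EP400, 40.1% for RUVBL1 and 28.5% for RUVBL2, each past the test described below. It was at 82.3% for TRRAP (adjusted p = 0.44, limma), 92.8% for MORF4L2 and 103% for MORF4L1, so that the RNA does not check these labels. MRGBP, DMAP1, ING3, MEAF6 and VPS72 were at 51.0%, 40.5%, 65.9%, 68.2% and 74.7% of their controls without passing the test. Of the astroglial and glioma markers VIM, CD44, SOX9 and, outside the sgNeg1 section, SOX2 were expressed. GFAP, S100B and OLIG2 did not exceed 0.347, 0.135 and 0.0325 FPKM in any library analysed, and NES ran from 0 to 8.75 FPKM. These markers were split, so they do not by themselves check the glioblastoma label. The defining immune, epithelial and endothelial markers PTPRC, EPCAM and PECAM1 did not exceed 0.0970, 0.660 and 0.0538 FPKM in any library.

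Promoter sequence is shown for 5 of the genes, because TEAD factors bind the core GGAATG. The CTGF and AMOTL2 transcripts were called higher in BRD8 and TIP60 knockout cells. ANKRD1 was also called there, but it passed the expression filter only through those knockouts, so its calls had to come out. Under p53 CTGF and AMOTL2 fell while AJUBA and F3 rose, F3 passing the filter through the P53 libraries, and ANKRD1 was not tested. RefSeq start sites on the GRCh38.p14 build gave 10 windows of 250 bases upstream for 7 of the 10 genes (CTGF is listed as CCN2), and both strands were searched for GGAATG and for the AP-1 motif, TGACTCA or TGAGTCA. Each sequence below runs 5′ to 3′ on the gene's own strand and ends at the base before the start site, with motif matches in capitals.

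CTGF, chr6:131951373-131951622, minus strand: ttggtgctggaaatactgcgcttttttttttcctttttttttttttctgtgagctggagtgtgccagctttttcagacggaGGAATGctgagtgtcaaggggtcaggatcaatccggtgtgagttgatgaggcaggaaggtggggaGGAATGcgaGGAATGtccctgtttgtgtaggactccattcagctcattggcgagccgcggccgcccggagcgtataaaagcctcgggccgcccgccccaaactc
ANKRD1, chr10:90921088-90921337, minus strand: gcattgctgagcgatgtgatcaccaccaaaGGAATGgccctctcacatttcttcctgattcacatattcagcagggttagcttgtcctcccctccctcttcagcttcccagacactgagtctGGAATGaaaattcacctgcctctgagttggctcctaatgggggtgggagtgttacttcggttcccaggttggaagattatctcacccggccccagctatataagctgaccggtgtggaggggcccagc
AMOTL2, chr3:134374448-134374697, minus strand: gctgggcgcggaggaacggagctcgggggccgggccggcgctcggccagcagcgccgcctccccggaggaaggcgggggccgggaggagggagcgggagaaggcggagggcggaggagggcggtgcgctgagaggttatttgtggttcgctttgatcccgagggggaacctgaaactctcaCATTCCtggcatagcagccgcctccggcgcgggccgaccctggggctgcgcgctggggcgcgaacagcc
AJUBA, chr14:22976843-22977092, minus strand: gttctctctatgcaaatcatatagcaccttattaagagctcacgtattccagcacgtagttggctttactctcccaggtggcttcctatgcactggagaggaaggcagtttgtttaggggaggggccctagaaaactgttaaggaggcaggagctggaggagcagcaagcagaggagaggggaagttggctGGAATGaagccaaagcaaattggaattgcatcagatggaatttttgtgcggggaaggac
F3, chr1:94541760-94542009, minus strand: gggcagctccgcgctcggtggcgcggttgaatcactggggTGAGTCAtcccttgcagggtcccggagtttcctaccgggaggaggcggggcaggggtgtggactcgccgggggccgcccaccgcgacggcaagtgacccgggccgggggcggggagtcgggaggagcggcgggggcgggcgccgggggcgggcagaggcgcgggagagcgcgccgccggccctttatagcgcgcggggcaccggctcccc

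CTGF held 3 copies of the TEAD core, counted from their first base at positions -169, -104 and -95 from the start site, and ANKRD1 held 2, at -220 and -128. AMOTL2 had a copy at -69 upstream of this start and none in its other window, AJUBA likewise had a copy at -59 in 1 of 2 windows, and AXL a copy at -212 in 1 of 2 windows. F3 held no TEAD core but an AP-1 match at -210, and LATS2 held neither. Of all 35116 windows in the table, 11.9% held the core at least once, 0.940% at least 2 times and 0.0826% at least 3 times, and 4.203% held the AP-1 motif. A match is a run of letters and not a measured binding site, and CYR61, CRIM1 and ASAP1 were not searched.

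The target genes were called higher in some knockouts and not in others, with unlike power between sections. On simulated data, changes of 0.5 on the log2 scale were called in 99% of changed genes for BRD8 and 38% for H2AZ. For TIP60 the share was 28% and for RUVBL1 8%, so a missing call does not show that a gene was unchanged. The change is given as the difference in log2(FPKM + 1) with its standard error, and a gene was called where limma's adjusted p, over all genes tested in the section, was under 0.05. In BRD8 knockout cells 7 of the 9 genes tested rose and none fell, where 24.2% of all 8458 genes tested rose. ANKRD1 is among the 7 but passed the expression filter in that section only through the BRD8 libraries, so it had to differ, and its call adds nothing to the count. In TIP60 knockout cells 8 of 10 rose and none fell, against 15.4% of all genes higher, and again ANKRD1 passed the filter only through the TIP60 libraries. TRRAP knockout raised 4 of 10 (all genes 6.54%), H2AZ knockout 3 of 9 (2.6%) and EP400 knockout 1 of 10 (1.56%). The median change of the genes tested was 0.65 for BRD8, 0.82 for TIP60, 0.56 for TRRAP, 0.49 for H2AZ and 0.45 for EP400 on the log2 scale, beside 0.020, -0.095, -0.019, -0.0094 and -0.032 over all genes. The BRD8 and TIP60 medians, like the counts, include ANKRD1, whose rise there was fixed by the filter.

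The remaining knockouts gave mixed or no calls. RUVBL1 knockout raised 4 and lowered 1 of 9 genes, where 12.3% of all genes rose and 15.5% fell, and RUVBL2 knockout raised 3 and lowered 2 of 9, where 13.5% rose and 19.9% fell, so that the falls were near the share of all genes. GAS41 knockout gave no call by limma (0.94% of all genes called in either direction), although all 10 changes were above 0, from 0.34 to 0.91, and 8 had an unadjusted p under 0.05. Of all 11382 genes tested there, 5244 had a change above 0 and 1923 an unadjusted p under 0.05. No member was called for ACTL6A (all genes 0.782%), MRGBP (0.264%) or ING3 (0.0264%), with 3, 0 and 3 members at an unadjusted p under 0.05. For ACTL6A, MRGBP and ING3, 1776, 1459 and 1085 of all 11382 genes tested had an unadjusted p under 0.05. No gene of any kind was called for DMAP1, MEAF6, VPS72, MORF4L1 or MORF4L2 (0% each), where 1021, 415, 402, 85 and 230 of all genes, and 2, 0, 0, 0 and 1 members, had an unadjusted p under 0.05. Over these last 5 knockouts the changes of the target genes ran from -0.34 to 0.49.

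**Figure D1:**
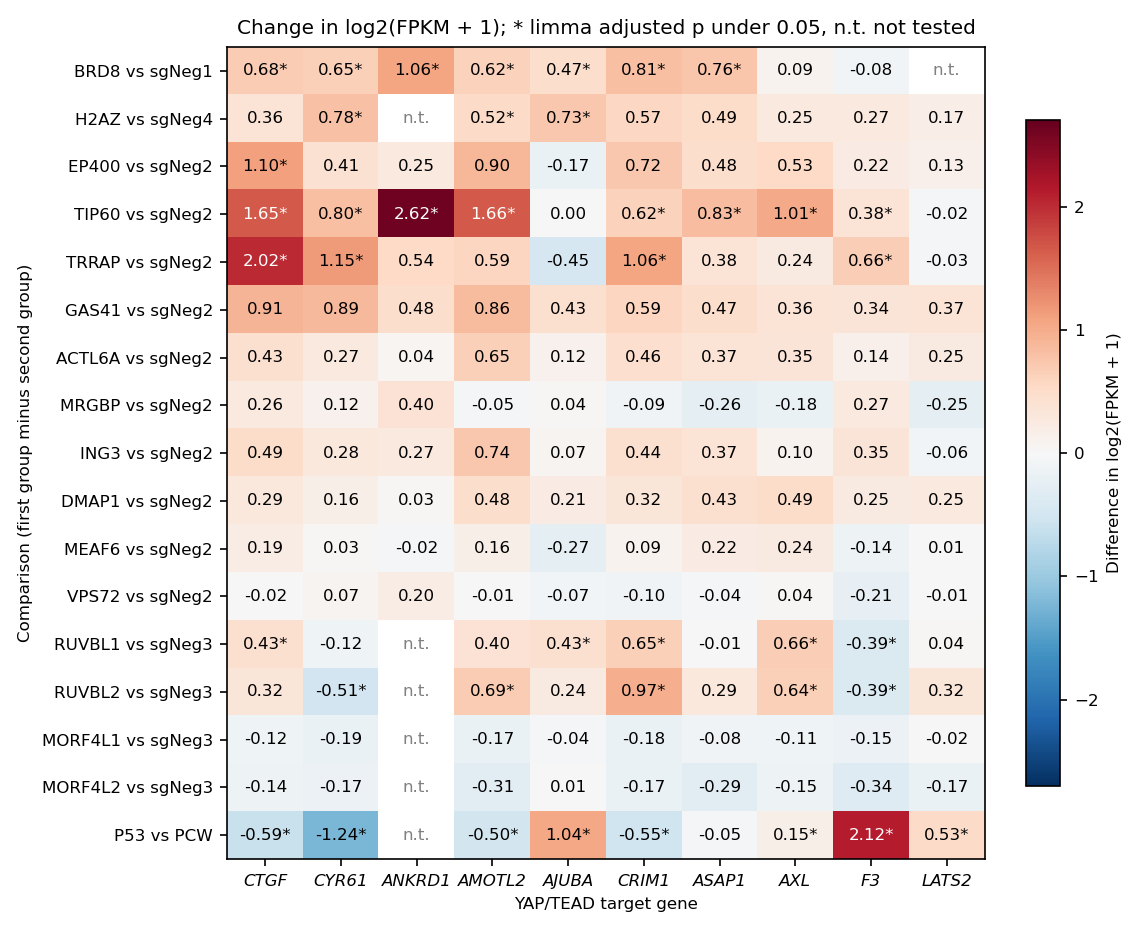
Change in log2(FPKM + 1) of the 10 YAP/TEAD target genes (columns) in the 16 knockouts and under p53 (rows, each against the controls of its own section). Red is higher and blue lower in the first-named group, an asterisk marks a limma adjusted p under 0.05, and n.t. marks a gene below the filter. TIP60 has 8 asterisks and BRD8 7, while CYR61 is -1.24 and F3 2.12 under p53.

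Several of these counts rest on single libraries. Without TRRAP guide 2, or without sgNeg2 replicate 1, 1 gene was called higher for TRRAP in place of 4. For TIP60 the count was 4 without guide 1, 5 without guide 2 and 5 without sgNeg2 replicate 1, and without either guide ANKRD1 was no longer tested. For H2AZ it was 6 without sgNeg4 replicate 2. For EP400 it was 0 whichever of its 4 libraries was left out. RUVBL1 then had 1 gene higher and 0 lower in each case, and RUVBL2 had 1 higher without guide 1 and 0 lower in each case. Setting the library medians equal raised every TIP60 change by 0.15. Fitted with its controls alone, GAS41 had 6 target genes higher, EP400 5 and RUVBL2 7. Of all genes, 510, 559 and 2942 were then called higher, beside 66, 178 and 1493 in the section fits.

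CTGF and CYR61 encode secreted matricellular proteins of the CCN family, which bind integrins and growth factors at the cell surface, and are the most widely used readouts of YAP activity. CTGF was at 437 and 353 FPKM in TIP60 knockout cells and at 341 and 757 FPKM in TRRAP knockout cells, against 117 and 131 FPKM in sgNeg2 cells. Neither knockout overlapped its controls, and TRRAP guide 2 was above all other libraries of the section. The CTGF change was 2.02 ± 0.28 for TRRAP (adjusted p = 8.4e-04, limma) and 1.65 ± 0.28 for TIP60 (adjusted p = 2.4e-04). EP400 knockout gave 287 and 249 FPKM, a change of 1.10 ± 0.28 (adjusted p = 0.041). GAS41 knockout, at 213 and 259 FPKM, lay above both controls without a call (adjusted p = 0.115).

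In BRD8 knockout cells CTGF stood at 27.7, 27.9, 31.0 and 27.1 FPKM, against 16.9 and 17.8 FPKM in sgNeg1 cells, a change of 0.68 ± 0.066 (adjusted p = 5.3e-05, limma). All 4 libraries of both guides were above both controls. In H2AZ knockout cells it was 160, 170, 174 and 174 FPKM, against 121 and 143 FPKM in sgNeg4 cells, which did not overlap but gave 0.36 ± 0.10 and an adjusted p of 0.073. RUVBL1 knockout raised CTGF to 179 and 163 FPKM, against 123 and 130 FPKM in sgNeg3 cells (0.43 ± 0.13, adjusted p = 0.033). Over the 16 knockouts CTGF was called higher in 5 and lower in none, and its change ran from -0.14 to 2.02.

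CYR61 followed CTGF in most but not all knockouts. It was at 240 and 211 FPKM in TIP60 and at 218 and 377 FPKM in TRRAP knockout cells, against 117 and 141 FPKM in sgNeg2 cells, which gave 0.80 ± 0.23 (adjusted p = 0.011) and 1.15 ± 0.23 (adjusted p = 0.0062, limma for both). GAS41 knockout cells, at 224 and 253 FPKM, had a change of 0.89 ± 0.23 without a call (adjusted p = 0.074, limma). BRD8 knockout cells had 28.1, 27.7, 24.6 and 23.5 FPKM, against 17.5 and 14.97 FPKM in sgNeg1 cells (0.65 ± 0.088, adjusted p = 3.2e-04). In H2AZ knockout cells CYR61 was 113, 118, 104 and 110 FPKM, against 68.3 and 60.4 FPKM in sgNeg4 cells, and its change of 0.78 ± 0.097 was the largest of the 9 genes tested there (adjusted p = 0.0021). The direction was the other way in RUVBL2 knockout cells, at 71.3 and 75.2 FPKM against 104 and 106 FPKM in sgNeg3 cells, a fall of 0.51 on the log2 scale (SE 0.15, adjusted p = 0.025). In those RUVBL2 cells CTGF was at 152 and 165 FPKM, above its controls without a call (adjusted p = 0.079).

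ANKRD1 encodes a nuclear ankyrin repeat protein known from stretched and injured muscle and is a strong YAP target in many cell types. It was nearly silent in the controls, at 0.117 and 0.0631 FPKM in sgNeg2 cells, which by the estimated depth is about 2.05 and 2.01 fragments. In TIP60 knockout cells it reached 10.7 and 2.85 FPKM, about 291 and 96.5 fragments, so that the guides differed more for this gene than for the other target genes called in TIP60. Its change was 2.62 ± 0.35 (adjusted p = 3.9e-05, limma). EP400 knockout cells had 0.360 and 0.241 FPKM and TRRAP knockout cells 0.589 and 0.575 FPKM, and neither was called. BRD8 knockout cells had 1.595, 1.87, 1.41 and 1.37 FPKM, against 0.183 and 0.262 FPKM in sgNeg1 cells, a change of 1.06 ± 0.091 (adjusted p = 2.6e-05). In the sgNeg3, sgNeg4 and PCW sections ANKRD1 stayed under the filter.

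**Figure D2:**
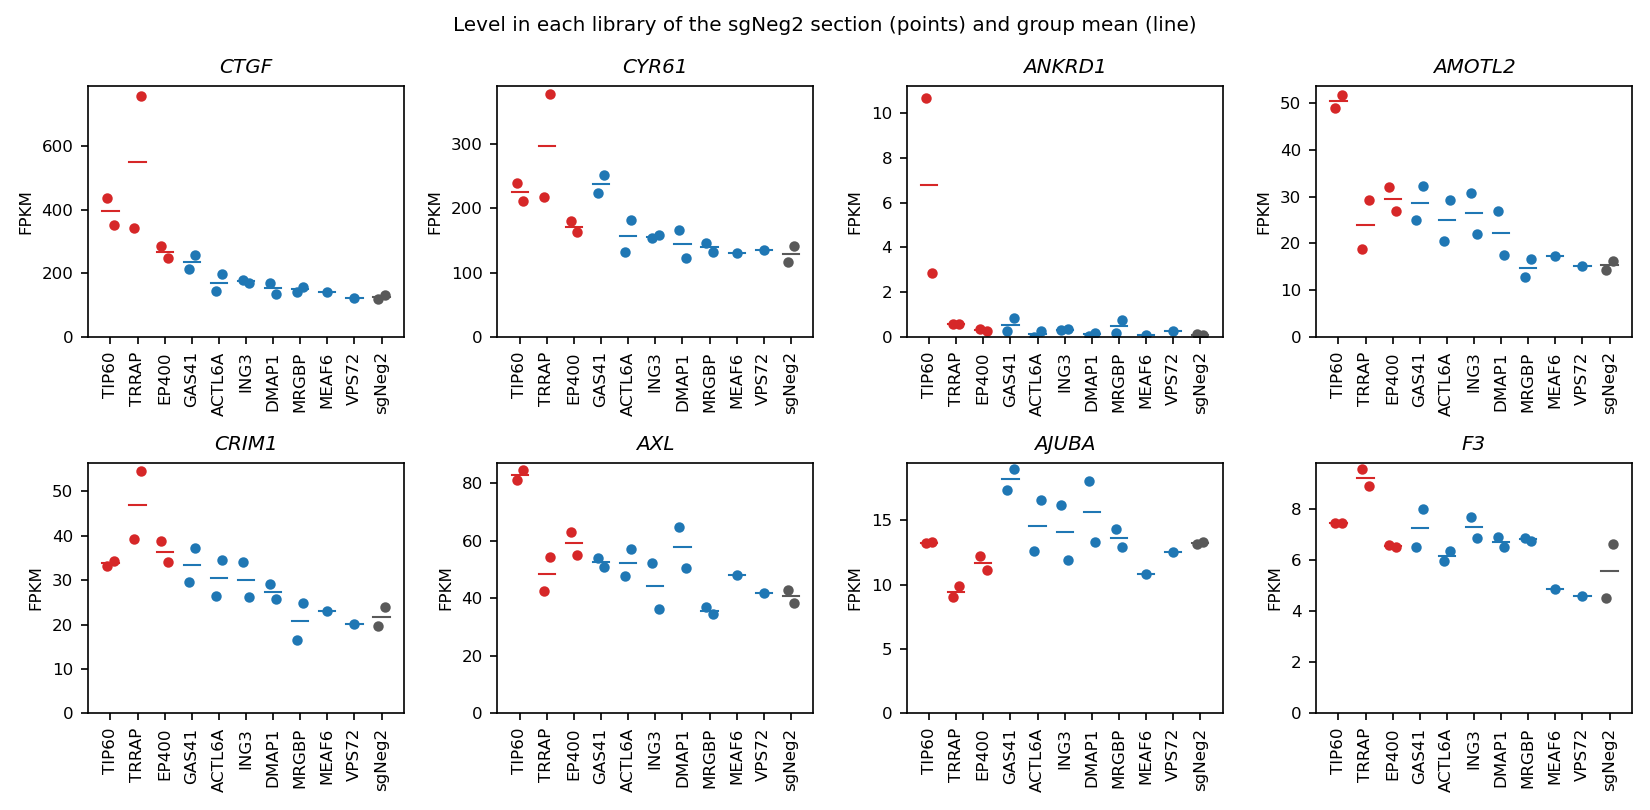
FPKM of 8 target genes in each library (points) of the sgNeg2 section, with the group mean as a line. TIP60, TRRAP and EP400 are in red, the other knockouts in blue and sgNeg2 in grey at the right. CTGF reaches 757 FPKM in TRRAP guide 2, and ANKRD1 exceeds 1 FPKM in the TIP60 libraries and in no other group.

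AMOTL2, AJUBA and LATS2 are targets whose products act back on the pathway. AMOTL2 encodes an angiomotin that retains YAP in the cytoplasm, AJUBA a LIM protein that restrains the LATS kinases, and LATS2 is itself such a kinase. AMOTL2 was at 49.0 and 51.7 FPKM in TIP60 knockout cells, against 14.2 and 16.3 FPKM in sgNeg2 cells, and the change of 1.66 ± 0.24 (adjusted p = 8.6e-05, limma) held at nearly the same level in both guides. EP400 knockout cells had 32.1 and 26.9 FPKM, a change of 0.90 ± 0.24 just short of a call (adjusted p = 0.052). BRD8 knockout cells had 3.84, 3.34, 3.54 and 3.40 FPKM, against 1.68 and 2.23 FPKM in sgNeg1 cells (0.62 ± 0.087, adjusted p = 3.9e-04). AMOTL2 also rose in H2AZ knockout cells, by 0.52 ± 0.11 (adjusted p = 0.022), and in RUVBL2 knockout cells, by 0.69 ± 0.15 (adjusted p = 0.0070).

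AJUBA took another course. It was at 13.2 and 13.3 FPKM in TIP60 knockout cells, against 13.1 and 13.3 FPKM in sgNeg2 cells, in the knockout where 8 of the other 9 genes rose. TRRAP knockout cells had 9.02 and 9.86 FPKM, below both controls, for a difference of -0.45 ± 0.16 that was not called (adjusted p = 0.074, limma). H2AZ knockout cells had 30.9, 30.7, 31.9 and 31.9 FPKM, against 18.0 and 19.1 FPKM in sgNeg4 cells, a rise of 0.73 ± 0.086 (adjusted p = 0.0017) with the 4 libraries close together. AJUBA rose by 0.47 ± 0.070 in BRD8 (adjusted p = 5.1e-04) and by 0.43 ± 0.13 in RUVBL1 knockout cells (adjusted p = 0.035). LATS2 was the least responsive, with 0 calls in the 15 knockouts where it was tested and changes from -0.25 to 0.37. Its levels were low, from 0.181 to 0.404 FPKM in the sgNeg1 section, where it was not tested, and from 0.847 to 2.36 FPKM in the other knockout sections.

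CRIM1 encodes a transmembrane protein with cysteine-rich repeats that binds bone morphogenetic proteins, and ASAP1 an Arf GTPase-activating protein of focal adhesions. CRIM1 was called higher in 5 knockouts, as often as CTGF. BRD8 knockout cells had 14.7, 14.8, 14.4 and 14.9 FPKM, against 7.30 and 8.61 FPKM in sgNeg1 cells, a change of 0.81 ± 0.068 (adjusted p = 2.4e-05, limma). In TRRAP knockout cells it was 39.3 and 54.6 FPKM, against 19.8 and 23.8 FPKM in sgNeg2 cells (1.06 ± 0.21, adjusted p = 0.0056). In RUVBL2 knockout cells it was 51.2 and 41.9 FPKM, against 22.3 and 23.9 FPKM in sgNeg3 cells (0.97 ± 0.19, adjusted p = 0.0055). The TIP60 change was 0.62 ± 0.21 (adjusted p = 0.027) and the RUVBL1 change 0.65 ± 0.19 (adjusted p = 0.036). In H2AZ knockout cells CRIM1 stood at 25.7 to 36.7 FPKM, above 18.4 and 23.8 FPKM in sgNeg4 cells, with 0.57 ± 0.15 and an adjusted p of 0.054.

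ASAP1 rose in BRD8 and in TIP60 knockout cells. BRD8 knockout cells had 22.6, 21.0, 20.1 and 21.4 FPKM, against 11.4 and 12.9 FPKM in sgNeg1 cells (0.76 ± 0.068, adjusted p = 3.6e-05, limma), and TIP60 knockout cells 51.1 and 54.9 FPKM, against 27.0 and 31.9 FPKM in sgNeg2 cells (0.83 ± 0.17, adjusted p = 0.0010). Both genes have long transcripts, and in the sgNeg2 section libraries differed in how long transcripts were read relative to short ones, by a log2 index between -0.55 and 0.22. Over those 20 libraries, which share their section's scaling, Pearson's r with this index was 0.55 for CRIM1 and 0.54 for ASAP1, against 0.26 for CTGF and 0.15 for CYR61. Over the 10 libraries of the sgNeg3 section it was 0.28 for CRIM1 and 0.80 for ASAP1, against -0.16 for CTGF and -0.40 for CYR61. The index was -0.23 and 0.19 in the TIP60 libraries and 0.034 and 0.22 in the TRRAP libraries, against -0.17 and 0.21 in the sgNeg2 libraries. With the length trend taken out of each library, the BRD8 and TIP60 calls of both genes and the TRRAP call of CRIM1 held. The TIP60 call of CRIM1 was lost without the filter (adjusted p = 0.055), without sgNeg2 replicate 1 (0.49, adjusted p = 0.16) and without either TIP60 guide. The RUVBL1 call of CRIM1 was lost whichever of its 4 libraries was left out, the TRRAP call without sgNeg2 replicate 1 (0.93) or TRRAP guide 2 (0.83), and the RUVBL2 call without guide 1 (0.83).

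AXL, a receptor tyrosine kinase for the ligand GAS6, and F3, tissue factor, which starts the clotting cascade, are cell surface proteins. AXL was at 81.1 and 84.6 FPKM in TIP60 knockout cells, against 42.9 and 38.3 FPKM in sgNeg2 cells, a change of 1.01 ± 0.18 (adjusted p = 3.3e-04, limma). RUVBL1 and RUVBL2 knockouts raised it to 71.4 and 72.5 FPKM and to 71.4 and 71.5 FPKM, against 45.8 and 44.9 FPKM in sgNeg3 cells. Those changes were 0.66 ± 0.099 (adjusted p = 0.0024) and 0.64 ± 0.099 (adjusted p = 0.0017). BRD8 knockout cells, at 17.4, 15.6, 16.3 and 16.2 FPKM against 14.2 and 16.4 FPKM in sgNeg1 cells, overlapped their controls (0.09 ± 0.071, adjusted p = 0.31).

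F3 was called higher in some knockouts and lower in others, and most of these calls rest on single libraries. TRRAP knockout cells had 9.57 and 8.90 FPKM, against 4.53 and 6.62 FPKM in sgNeg2 cells (0.66 ± 0.14, adjusted p = 0.0084, limma), and TIP60 knockout cells 7.43 and 7.46 FPKM (0.38 ± 0.14, adjusted p = 0.039). F3 fell to 5.005 and 4.67 FPKM in RUVBL1 and to 4.77 and 4.89 FPKM in RUVBL2 knockout cells, against 6.59 and 6.72 FPKM in sgNeg3 cells, by 0.39 on the log2 scale in both (SE 0.11, adjusted p = 0.025 and 0.020). In BRD8 knockout cells it was 1.86 to 2.04 FPKM, within the 1.87 to 2.33 FPKM of sgNeg1 cells apart from its lowest library. The TIP60 call was lost without sgNeg2 replicate 1 (0.15, adjusted p = 0.45), without either TIP60 guide (0.38 for both), without the filter (adjusted p = 0.053) and in the compared groups alone (0.16). The RUVBL1 and RUVBL2 calls were lost whichever of their 4 libraries was left out, and the TRRAP call without sgNeg2 replicate 1 (0.42) or TRRAP guide 2 (0.70).

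RUVBL1 and RUVBL2 encode the paired ATPases of the complex, and TIP60 and EP400 its acetyltransferase and its nucleosome-exchanging ATPase, so these pairs were compared directly. Between RUVBL2 and RUVBL1 knockouts no target gene was called (0.00904% of all genes, limma), and the largest difference was CYR61 at -0.39 ± 0.15 (adjusted p = 0.87). ANKRD1 at 2.37 ± 0.35 (adjusted p = 4.0e-04) and AMOTL2 at 0.76 ± 0.24 (adjusted p = 0.038) were higher in TIP60 than in EP400 knockout cells, where 7.82% of all genes were. ANKRD1 passed the filter only through the TIP60 libraries and so had to differ, and its call adds nothing to the count. The AMOTL2 libraries were 49.0 and 51.7 FPKM in TIP60, against 32.1 and 26.9 FPKM in EP400 knockout cells. CTGF differed by 0.55 ± 0.28 (adjusted p = 0.17), with 437 and 353 FPKM in TIP60 and 287 and 249 FPKM in EP400 knockout cells. The AMOTL2 call was lost on leaving out any one of these 4 libraries (adjusted p from 0.091 to 0.22) and without the filter (0.082). Between the BRD8 and the H2AZ changes, which share no controls, only ANKRD1 was called (0.67 ± 0.17, adjusted p = 0.036, 3.47% of all genes higher), which passed the filter only through the BRD8 libraries, and that call was lost on leaving out sgNeg1 replicate 1 or 2, either replicate of BRD8 guide 1 or H2AZ guide 1 replicate 2. CTGF (0.32 ± 0.12, adjusted p = 0.13) and CYR61 (-0.14 ± 0.13, adjusted p = 0.59) were not called between them.

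Expression of p53 divided the target genes. CYR61 fell to 74.5 and 71.1 FPKM in P53 cells, against 178 and 168 FPKM in PCW cells, by 1.24 on the log2 scale (SE 0.049, adjusted p = 4.1e-07, limma). CTGF was 84.3 and 82.7 FPKM, against 125 and 128 FPKM (-0.59 ± 0.042, adjusted p = 7.8e-06), and CRIM1 and AMOTL2 fell by 0.55 and 0.50. F3 went the opposite way, at 8.21 and 7.43 FPKM in P53 cells against 0.875 and 1.20 FPKM in PCW cells, a rise of 2.12 ± 0.10 (adjusted p = 1.2e-06) and a ratio of mean FPKM of 7.53. The PCW libraries alone would not have passed the filter for F3, which entered the test through the P53 libraries. Its call therefore adds nothing to the count. AJUBA was 98.9 and 93.2 FPKM in P53 cells, against 47.6 and 45.04 FPKM in PCW cells (1.04 ± 0.053, adjusted p = 1.4e-06), and LATS2 5.61 and 5.17 FPKM, against 3.43 and 3.45 FPKM (0.53 ± 0.079, adjusted p = 4.9e-04). AXL rose by 0.15 ± 0.043 (adjusted p = 0.013), a call that was lost once library medians were made equal, and ASAP1 was not called. ANKRD1, under the filter, was at 0.129 and 0.404 FPKM in P53 and at 0.791 and 0.765 FPKM in PCW cells. The 4 higher and 4 lower of 9 tested stand against 37.6% of all genes higher and 46.7% lower, so the number of calls is near that of the table as a whole.

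**Figure D3:**
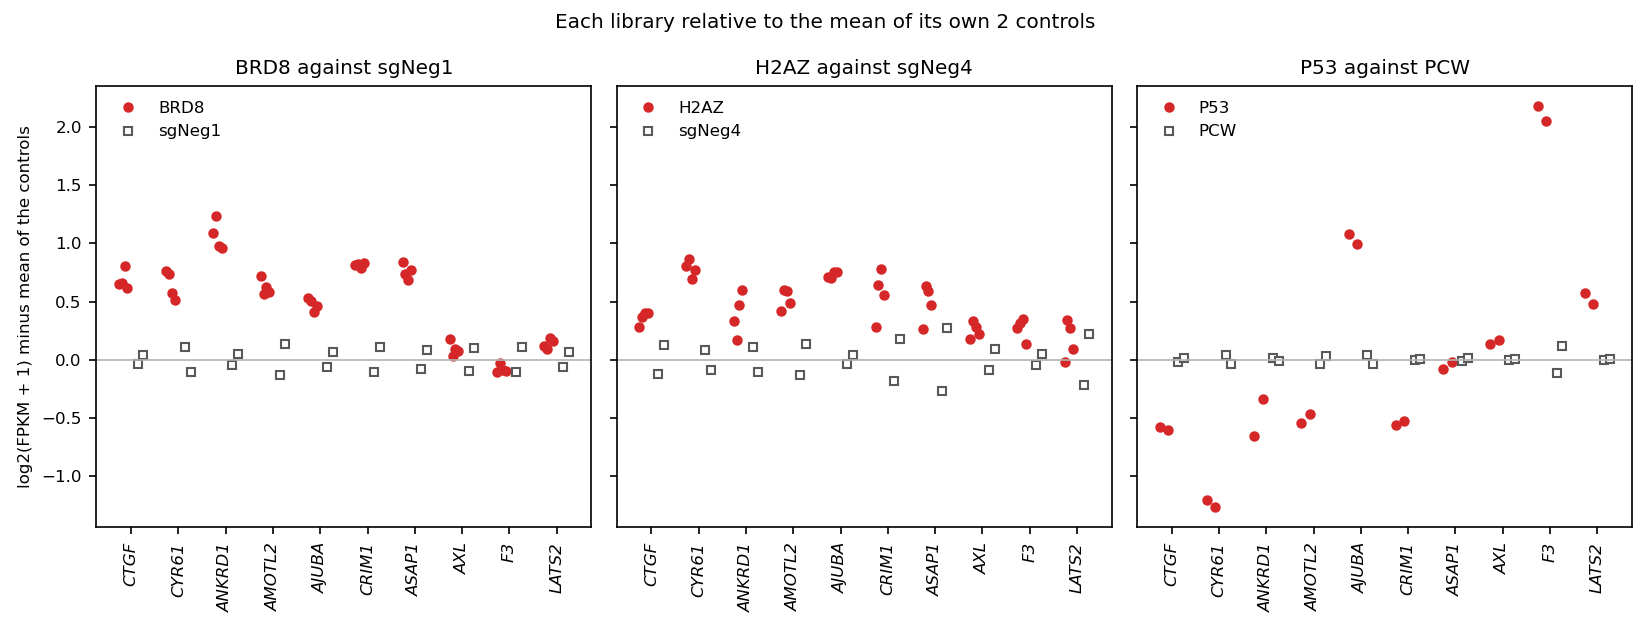
Level of each target gene in every BRD8, H2AZ and P53 library (filled) relative to the mean of its own 2 control libraries (open squares), in log2(FPKM + 1). CTGF, CYR61, AMOTL2 and CRIM1 lie above 0 in all BRD8 and H2AZ libraries and below 0 in both P53 libraries, while F3 exceeds 2 in both P53 libraries.

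The BRD8 and p53 changes were tested against each other in 1 model with no shared controls. Most target genes differed, as did most genes tested, so the number of calls is near that of the table as a whole. The BRD8 change exceeded the p53 change for 6 of 10 genes (42.1% of all genes), by 1.88 ± 0.12 for CYR61 (adjusted p = 2.0e-07, limma), 1.56 ± 0.14 for ANKRD1, 1.36 ± 0.087 for CRIM1, 1.28 ± 0.086 for CTGF, 1.13 ± 0.12 for AMOTL2 and 0.81 ± 0.090 for ASAP1. It was below the p53 change for 3 (35.9% of all genes), at -2.20 ± 0.13 for F3 (adjusted p = 6.5e-08), -0.56 ± 0.088 for AJUBA and -0.39 ± 0.085 for LATS2. The LATS2 difference was not called at a pseudocount of 0.1 (-0.17 ± 0.23, adjusted p = 0.52), and its ratio of mean FPKM was 1.51 for BRD8 over sgNeg1 and 1.57 for P53 over PCW. ANKRD1 passed the filter of this model only through the BRD8 libraries and so had to differ. AXL showed no difference past the threshold (-0.06 ± 0.093, adjusted p = 0.57). CTGF, CYR61, AMOTL2 and CRIM1 rose in BRD8 knockout cells and fell in P53 cells, and AJUBA rose in both. CDKN1A, a p53 target, was higher in BRD8 knockout cells by 0.38 on the log2 scale. The sections differ in treatment and time and may differ in scaling, and these cannot be told apart from the difference between knockout and p53.

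**Figure D4:**
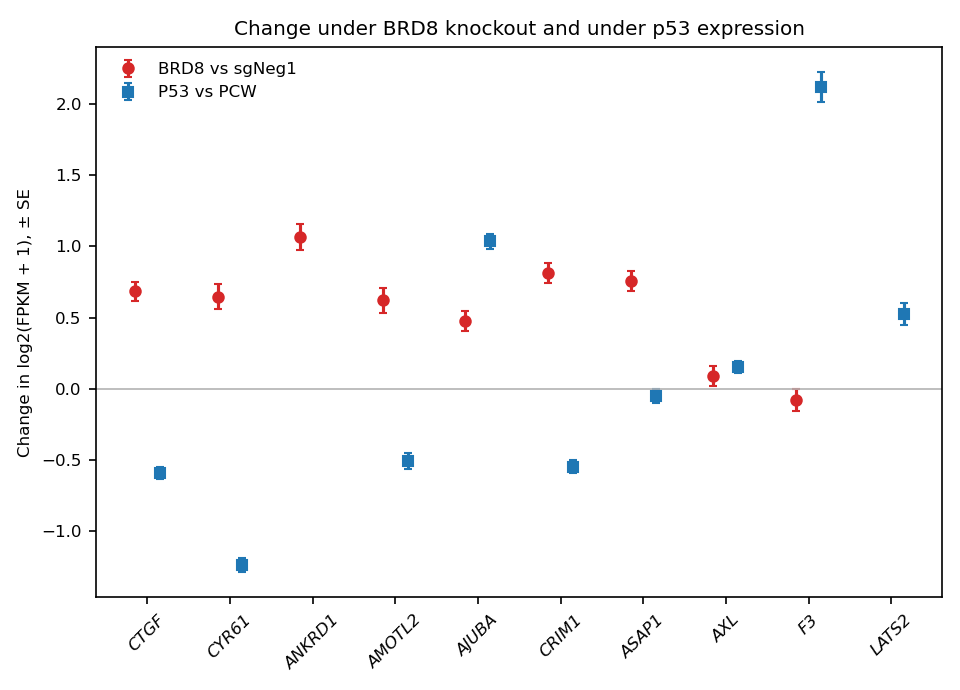
Change in log2(FPKM + 1) with its standard error for each target gene in BRD8 knockout cells against sgNeg1 (red circles) and in P53 cells against PCW (blue squares). ANKRD1 under p53 and LATS2 in BRD8 have no point because they were below the filter. CYR61 is at 0.65 in red and -1.24 in blue, and F3 at -0.08 in red and 2.12 in blue.

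The coactivators and their partners were next set beside their targets. YAP1 RNA was at a mean of 19.8 FPKM in TIP60 and 39.1 FPKM in sgNeg2 cells (-0.95 ± 0.14, adjusted p = 7.1e-05, limma), and WWTR1, encoding TAZ, at 39.8 FPKM in TIP60 and 83.6 FPKM in sgNeg2 cells (-1.06 ± 0.19, adjusted p = 4.8e-04). WWTR1 also fell in BRD8 (by 0.89), H2AZ (by 0.68), RUVBL1 (by 1.24) and RUVBL2 knockout cells (by 1.05), whereas YAP1 was called in none of these but BRD8, with a small rise of 0.17 at an adjusted p of 0.04996. Neither was called in TRRAP or EP400 knockout cells, where CTGF rose. TEAD2 fell in BRD8, EP400, TIP60, TRRAP, RUVBL1, RUVBL2 and P53 cells, most in TIP60 (5.59 FPKM against 33.4 FPKM in sgNeg2 cells, -2.38 ± 0.20). TEAD1 was called in P53 cells (0.30 ± 0.064) and in none of the knockouts shown. TEAD3 fell in TIP60 (by 0.58) and rose in BRD8 (0.27) and P53 cells (1.05), and TEAD4 fell in P53 cells (by 1.09).

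**Figure D5:**
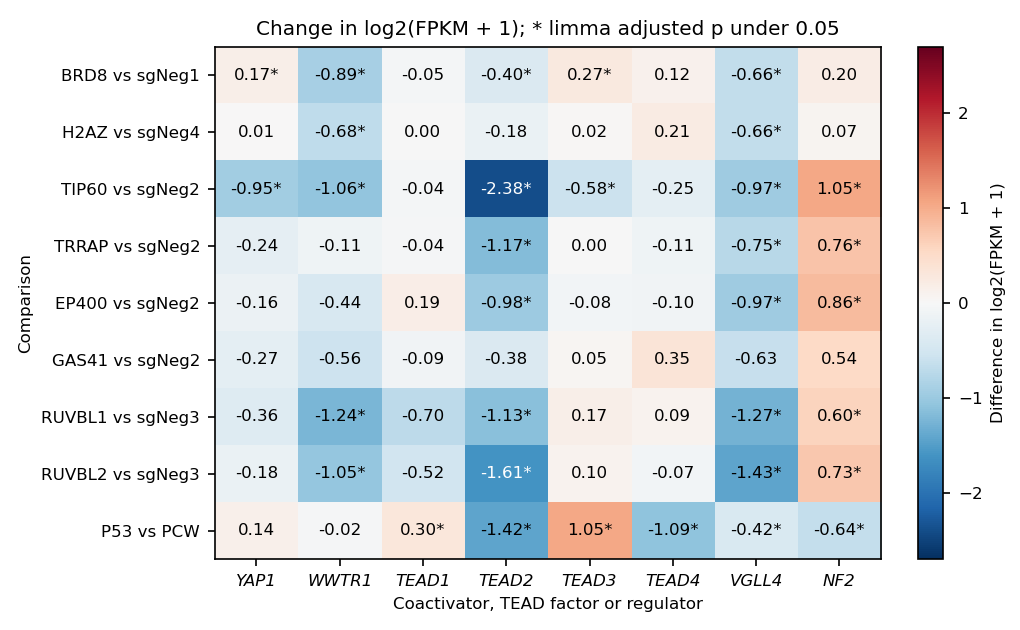
Change in log2(FPKM + 1) of YAP1, WWTR1, TEAD1 to TEAD4, VGLL4 and NF2 in 8 knockouts and under p53. An asterisk marks a limma adjusted p under 0.05. VGLL4 is at -0.66 or lower in all 7 knockouts with an asterisk in that column, and TEAD2 reaches -2.38 in TIP60.

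VGLL4, a cofactor that competes with YAP for TEAD, fell in BRD8 (by 0.66), H2AZ (by 0.66), EP400 (by 0.97), TIP60 (by 0.97), TRRAP (by 0.75), RUVBL1 (by 1.27), RUVBL2 (by 1.43) and P53 cells (by 0.42). NF2, the merlin protein that activates the Hippo kinases at the membrane, rose in EP400 (0.86), TIP60 (1.05), TRRAP (0.76), RUVBL1 (0.60) and RUVBL2 knockout cells (0.73) and fell in P53 cells (by 0.64). Of the 14 Hippo kinases and adaptors, all tested in these sections, 3 rose and 2 fell in TIP60, 1 rose and none fell in EP400 and in TRRAP, and none was called in H2AZ. The shares of all genes were 15.4% higher and 26.6% lower in TIP60, 1.56% higher in EP400 and 6.54% higher in TRRAP, so the TIP60 counts were near or below those of the table as a whole. The kinase genes LATS1, STK3 and STK4 were called in none of BRD8 (where LATS1 was not tested), H2AZ, EP400, TIP60, TRRAP, GAS41 and RUVBL2. STK3 fell in RUVBL1 knockout cells (by 0.39), and in P53 cells LATS1 fell (by 0.77) and STK4 rose (0.18). Of the junction and cytoskeletal inhibitors, DCHS1, an atypical cadherin, fell in BRD8 (by 0.51), EP400 (by 0.86), TIP60 (by 1.90), TRRAP (by 0.73), RUVBL1 (by 1.35) and RUVBL2 knockout cells (by 1.40). On that list, which includes AMOTL2 and AJUBA, 4 of 7 tested rose and 1 fell in BRD8 (all genes 24.2% and 21.7%). In TIP60, 1 of 10 rose and 3 fell, in RUVBL1 1 and 2 (12.3% and 15.5%) and in RUVBL2 1 and 1 (13.5% and 19.9%). EP400 and TRRAP each lowered 1 of 10 (258 and 877 of 11382 genes) and raised none. H2AZ raised 2 of 9 (2.6%) and lowered none. Under p53, 6 of 10 rose and 3 fell (37.6% and 46.7%).

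Further YAP/TAZ signature genes, on a list of 12, were counted in the same way. In TIP60 knockout cells 6 of 11 tested rose and none fell, where 15.4% of all genes rose, with IGFBP3, an insulin-like growth factor binding protein, at 25.9 FPKM against 3.06 FPKM in sgNeg2 cells (2.69 ± 0.26, adjusted p = 3.2e-06, limma). BRD8 knockout raised 4 of 7 (GADD45A, MYOF, IGFBP3 and PTPN14) and lowered 1, where 24.2% of all genes rose and 21.7% fell. EP400 knockout raised 3 of 11 (all genes 1.56%), TRRAP 2 of 11 with 1 lower (6.54% and 7.71%), GAS41 2 of 11 (0.58%) and H2AZ none of 11 (2.6%). Under p53, 5 of 12 rose and 6 fell, near the 37.6% and 46.7% of all genes, and IGFBP3 rose by 3.28. FHL2, a LIM protein counted with the SRF targets, rose in BRD8 (1.09), EP400 (0.97), TIP60 (2.16), TRRAP (0.96), RUVBL1 (1.61), RUVBL2 (1.497) and P53 cells (0.98). On that list 4 of 10 tested rose and 1 fell in BRD8 (all genes 24.2% and 21.7%). In TIP60, 4 of 11 rose and 1 fell (15.4% and 26.6%), and in EP400 2 of 11 rose (1.56%). TRRAP knockout raised 1 and lowered 2 of 11 (6.54% and 7.71%). RUVBL1 and RUVBL2 each raised 2 and lowered 1 of 10 (12.3% and 15.5%, 13.5% and 19.9%). H2AZ lowered 1 of 10 and raised none (379 and 288 of 11087 genes). Under p53, 4 of 12 rose and 8 fell (37.6% and 46.7%). Among the other CCN family genes, NOV rose in BRD8 (0.45), H2AZ (0.49) and P53 cells (1.11) and fell in TIP60 (by 0.59) and RUVBL2 knockout cells (by 0.54), and WISP1 fell in RUVBL1 (by 0.92) and RUVBL2 knockout cells (by 1.23). RUVBL2 knockout thus lowered 3 of the 4 CCN genes tested, CYR61 included, and raised none, where 19.9% of all genes fell and 13.5% rose. The CYR61 call was lost whichever single library of that comparison was left out.

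Markers of other cell types were at or near 0 with few exceptions. CD68, a lysosomal protein of macrophages that other cells also express, made up nearly all of the summed immune markers, which were 37.1 and 74.0 FPKM in TRRAP knockout cells and 14.6 and 18.6 FPKM in sgNeg2 cells. The same sum was 25.2 and 25.6 FPKM in P53 cells and 8.91 and 10.1 FPKM in PCW cells, while PTPRC, AIF1 and CD3E did not exceed 0.173 FPKM anywhere. VWF averaged 3.16 FPKM in P53 and 0.0559 FPKM in PCW cells, while PECAM1 and CDH5 did not exceed 0.153 FPKM anywhere. SOX2 fell by 2.03 in TIP60, 1.80 in RUVBL1, 2.00 in RUVBL2 and 0.73 in H2AZ knockout cells, and by 0.57 in P53 cells. The part of these shifts in the target gene changes was not tested.

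Over the 46 libraries, each centred on its section, the target genes were most alike between AMOTL2 and ASAP1 (Pearson's r = 0.87), AMOTL2 and AXL (0.83) and AMOTL2 and CRIM1 (0.81), and CTGF and CYR61 had r = 0.78. The lowest coefficients involved F3 or AJUBA, with r of -0.13 between F3 and CYR61 and -0.064 between AJUBA and CTGF. Of 7887 genes, the 5 whose profile was most like the mean of 8 target genes were DYNC1H1 (0.91), MYOF (0.91), FMN2 (0.91), NAV3 (0.90) and ELL2 (0.90). DYNC1H1 is the dynein heavy chain, MYOF a membrane repair protein that is itself on YAP signature lists, FMN2 an actin nucleator and ELL2 a transcription elongation factor. These libraries share controls and section scaling, so the coefficients are descriptive. AMOTL2, AXL, CRIM1 and ASAP1 have long transcripts (4521, 4737, 5912 and 6344 bases), as has AJUBA (4262), beside 2339 for CTGF and 2290 for CYR61. The part of the length trend in these coefficients was not tested.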

How the data were processed

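The authors deposited a single table of FPKM values for 48 libraries, made, per the submitters' processing notes, with TopHat2, Cufflinks, Cuffdiff and hg19, whose versions and roles are not given in the sources used here. Libraries were strand-specific, per the labels' protocols. The table holds no counts, so depth was estimated from the lowest steps of FPKM in 3761 single-transcript genes and covers counting error only. Every column name matched a library label, with 0 left over.

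Values were analysed as log2(FPKM + 1), a scale that understates changes of low genes. Within each section, genes with at least 1 FPKM in at least 2 libraries entered a linear model in limma 3.58.1 under R 4.3.3 (1 level per target over all libraries of the section, intensity trend, two-sided), with Benjamini-Hochberg adjustment over all genes tested and a threshold of 0.05. MEAF6 and VPS72, with 1 library each, took their spread from the section. The differences of changes came from 1 fit over both sections. The fit was tested on simulated data with 200 changed genes.

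Members and the 11 other lists were chosen with earlier results of these data known. Named were all members, the targeted gene and CDKN1A where they check a label, YAP1, WWTR1 and TEAD1 to TEAD4, up to 4 called genes with the smallest adjusted p per list and comparison, and the 5 genes most like the members' mean. DCHS1, NF2, VGLL4, FHL2, IGFBP3, NOV, LATS1, STK3, STK4, WISP1, SOX2 and CD68 were also given in comparisons outside that rule, chosen after their values were seen. Some genes that the rule names are not reported here. Gene length came from GENCODE transcripts, for 96.9% of genes. Alternatives were a pseudocount of 0.1, no filter, equal library medians, the compared groups alone, a replicate block, each library left out, each guide alone and, chosen after seeing the data, the length trend removed.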

Additional observations from a re-analysis of the deposited data

Results flagged for a closer look

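The following genes were picked out because the BRD8 and p53 changes, or the BRD8 and H2AZ changes, differed by a test of the difference itself (limma over 1 fit, adjusted over all genes). By this test the BRD8 change was higher for 42.1% and lower for 35.9% of all genes against p53, and higher for 3.47% against H2AZ. Against p53 the BRD8 change was higher by 1.28 for CTGF, 1.88 for CYR61, 1.56 for ANKRD1, 1.13 for AMOTL2, 1.36 for CRIM1 and 0.81 for ASAP1, in log2 units. It was lower for AJUBA (-0.56), F3 (-2.20) and LATS2 (-0.39), although LATS2 was no longer called at a pseudocount of 0.1 (-0.17, adjusted p = 0.52). Against H2AZ it was higher for ANKRD1 (0.67). ANKRD1 passed the filter in these fits through the BRD8 libraries, and LATS2 through the P53 and PCW libraries. No BRD8 or H2AZ library stood apart from the other 3 of its group for any target gene by Dixon's criterion for groups of 4.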

How the results depend on the processing

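With each library left out in turn, the number of target genes called higher ran from 2 to 6 for H2AZ (3 with all), 0 to 0 for EP400 (1), 4 to 8 for TIP60 (8), 1 to 5 for TRRAP (4), 1 to 1 for RUVBL1 (4), 1 to 3 for RUVBL2 (3), 0 to 1 for TIP60 against EP400 (2, with ANKRD1 not tested once a TIP60 library was left out) and 0 to 1 for BRD8 against H2AZ changes (1). The number lower was 0 throughout for RUVBL1 (1) and RUVBL2 (2), and 0 to 2 for MORF4L2 (0, with 2 lower without guide 1). The BRD8, P53 and BRD8-minus-P53 counts stayed within 1.5 times. Without the filter the count higher was 0 for EP400, 1 for TIP60 against EP400 and 0 for BRD8 against H2AZ changes, and 0 for the last also at a pseudocount of 0.1. In the compared groups alone it was 5 for EP400, 6 for GAS41, 1 for ING3 and 7 for RUVBL2. All genes called higher there numbered 559, 510, 113 and 2942. With equal library medians the target gene count was 5 for RUVBL2. With the length trend removed it was 6 for H2AZ, 4 for EP400, 6 for RUVBL2 and 4 for TIP60 against EP400. All genes called higher with that trend removed numbered 524, 342, 2651 and 1497. Equal medians raised every TIP60 change by 0.15, TIP60 against EP400 by 0.10 and the others by less than 0.1 in size. The cause of these shifts was not tested.

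The small AXL change in BRD8 cells became -0.0044 without sgNeg1 replicate 1 and lay between that and 0.19 over all omissions. That of F3 lay between -0.19 and 0.027, and the BRD8-minus-P53 difference of AXL between -0.16 and 0.038. Under p53 ASAP1 became 0.031 and ACTA2 0.010 with the length trend removed.

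The replicate block kept the target gene counts within 1.5 times, at 7 for BRD8, 4 for H2AZ, 8 for TIP60, 4 for TRRAP and 5 higher for RUVBL1. It gave CRIM1 in H2AZ an adjusted p of 0.039 and YAP1 in BRD8 one of 0.055 (limma). The numbers are not stated to mark shared cultures, and same-numbered libraries deviated together with r of 0.008 for BRD8, 0.029 for H2AZ, 0.52 for TIP60 and 0.65 for MRGBP. For knockouts with 1 library per guide the number is that of the guide. The block then sets a guide beside the control replicate of the same number, a pairing that the labels do not give.

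Counts over all genes moved more. In the compared groups alone RUVBL1 had 6077 (3077 in the section), RUVBL2 6776 (3698), EP400 1669 (436) and GAS41 1053 (107). Without the filter EP400 had 153 and GAS41 3. H2AZ had 146 with guide 1 alone and 247 with guide 2 alone (667), and 1096 with the length trend removed. Without TRRAP guide 2 that knockout had 72 (1621). With an estimated 4.42 to 7.57 fragments per kilobase at 1 FPKM, depth was lowest in the sgNeg4 section, where ANKRD1 was under the filter and LATS2 had a change of 0.17 ± 0.17.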
